A study of Mus musculus with 6 samples.

Results

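The 10 genes described here carry arginine into nitric oxide or into polyamines in macrophages. They were chosen by name as a set, with earlier results of these data known: *Arg1*, *Arg2*, *Nos2*, *Ass1*, *Asl*, *Odc1*, *Srm*, *Sms*, *Sat1* and *Oaz1*. All 10 were found by symbol among the 24972 rows of a table of gene expression. The table covers bone marrow-derived macrophages, differentiated in culture from mouse marrow cells under L929 supernatant, which supplies macrophage colony-stimulating factor. One group came from wild-type mice (WT) and the other from Lcn10 knockout mice (Lcn10-KO), which lack the secreted carrier protein lipocalin 10, and each group had 3 libraries of untreated cells. The labels do not state the knockout allele, the strain, sex and age of the mice, and whether each replicate is its own animal. The p-values therefore speak only for the variation among these 6 libraries, some of which may be technical.

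Arginine stands at a fork in macrophages. Nitric oxide synthase turns it into nitric oxide and citrulline, a reaction known from classically activated cells, while arginase turns it into urea and ornithine, a reaction known from alternatively activated mouse macrophages. Citrulline can be rebuilt into arginine by argininosuccinate synthase and argininosuccinate lyase. Ornithine is decarboxylated to putrescine, which is extended to spermidine and spermine. Acetylation marks these polyamines for breakdown or export, and antizyme ties the first enzyme of synthesis to the polyamine level.

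Values are normalized counts, read counts per gene that the authors scaled between libraries, and the libraries held about 18000000 to 24800000 reads. *Lcn10* was listed at 0 in all 6 libraries, so the targeted gene cannot check the genotype labels. All 10 macrophage markers examined were tested, with 2 higher and 2 lower in Lcn10-KO, and their sum was 284760 to 295263 in WT and 298353 to 312878 in Lcn10-KO. Among markers of other cells, the summed neutrophil list lay at 703 to 776 in WT and 721 to 772 in Lcn10-KO, with *Ly6g* at 0 throughout. The fibroblast list summed to 3039 to 4748 in WT and 3998 to 4485 in Lcn10-KO, and the endothelial list to 1376 to 1558 and 1465 to 1982, with 1 of its 5 tested genes, *Vwf*, higher in Lcn10-KO (limma adjusted p = 0.0424). The B cell list was low in both, with sums of 37.1 to 54.5 in WT and, without overlap, 57.7 to 76.6 in Lcn10-KO. The lists of dendritic cells, T and NK cells, erythroid cells and granulocytes other than neutrophils overlapped between genotypes and summed to at most 119. The part of these marker levels in the results below was not tested. WT replicate 1 stood apart from the rest along the leading principal component (39.9% of the variance; -26.3, where the other WT libraries had -4.63 and -9.29 and Lcn10-KO spanned 9.92 to 15.3).

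*Sat1*, the acetyltransferase that starts polyamine breakdown, rose in Lcn10-KO to 1.37 times its WT mean, and *Arg1*, the cytosolic arginase, fell to 0.335 times its WT mean. These were the 2 members that passed the test, 1 in each direction, among the 8 that could be tested. *Odc1*, *Srm* and *Sms*, the enzymes that build the polyamines, had lower means in Lcn10-KO, and *Oaz1*, the antizyme that holds ornithine decarboxylase down, had a higher mean. None of these 4 passed. Each had an unadjusted limma p under 0.05, as had 3180 of all 12091 genes tested. The test was limma on log2(value + 1), a scale that understates changes of low genes, for genes reaching 10 normalized counts in 3 or more libraries, with Benjamini-Hochberg adjusted p and a threshold of 0.05. Over all 12091 genes tested it called 9.84%, 4.7% as higher and 5.14% as lower. The 2 of 8 members are 25%, a share resting on few genes, chosen with earlier results of these data known. The WT values of *Arg1*, where it was high, were alone enough for it to meet the filter and enter this count.

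In 7 of the 8 tested members the genotypes did not overlap, with 3 members higher and 4 lower in every Lcn10-KO library. Over all genes tested 32.4% did not overlap, 15.5% with Lcn10-KO above and 16.9% with it below. The 7 genes cannot be read as independent, since several of them vary together among the libraries, and *Arg1* met the filter through its 3 WT values and 1 Lcn10-KO value. The median log2 fold change of the 8 was -0.018, against -0.0011 over all genes tested, and the median size without sign was 0.38 against 0.10. The 8 include *Ass1*, at 1.66 ± 1.75 (SE), whose reads were split with a near-identical copy described below. They also include *Arg1*, which had few reads.

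**Figure D1:**
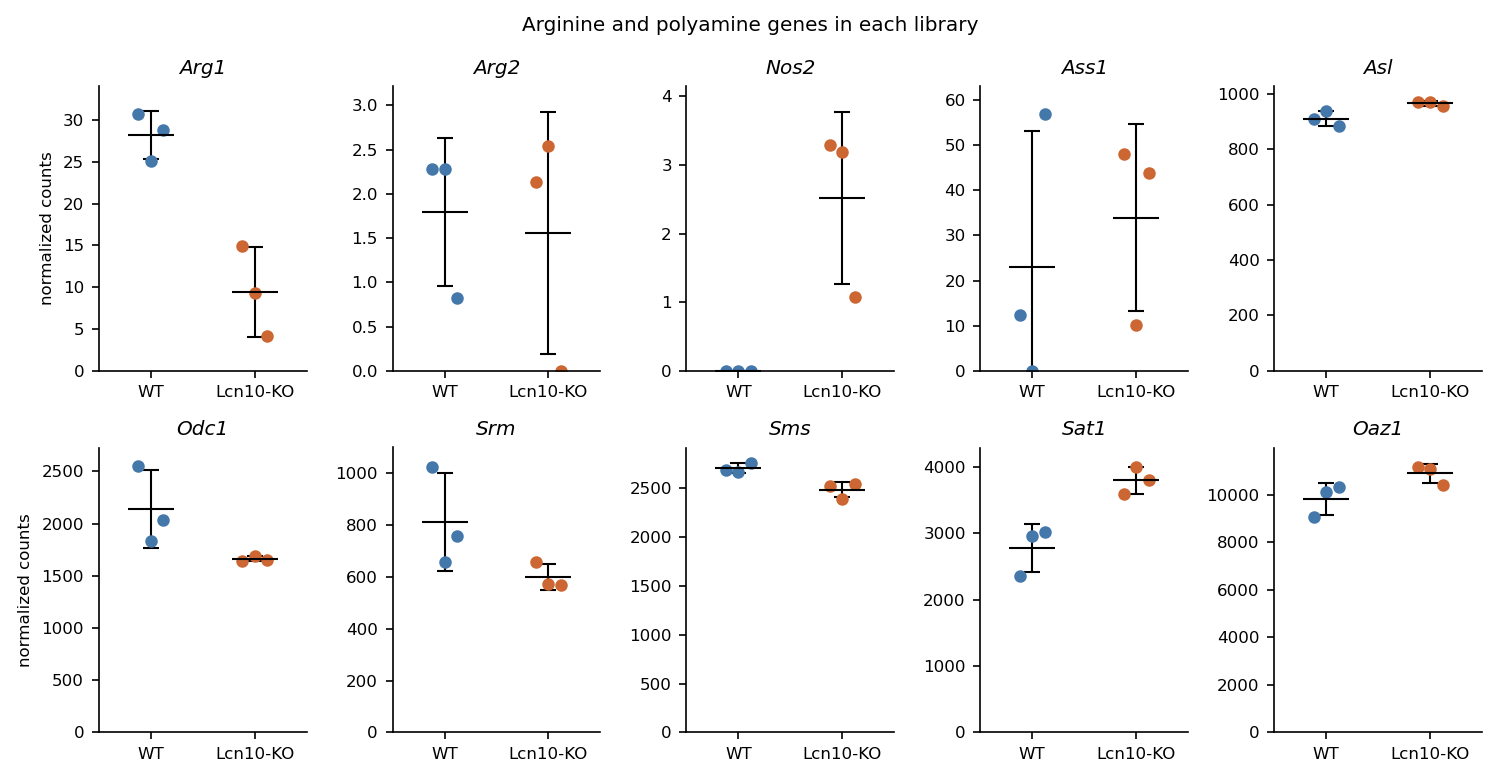
Normalized counts (vertical axis, from 0) of the 10 members in each of the 3 WT (blue) and 3 Lcn10-KO (orange) libraries, with the mean and SD in black (error bars are not drawn below 0). *Sat1* lies between 3590 and 4006 in Lcn10-KO, above the WT values of 2359 to 3023, while *Arg2* and *Ass1* overlap between the genotypes.

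Per length of transcript the members spanned 4 orders of size in Lcn10-KO and formed the same leading order in both genotypes. In WT, *Oaz1* stood highest at 9173 ± 633 (SD, n = 3) normalized counts per kb of the longest coding transcript. *Sat1* followed at 2393 ± 315, *Odc1* at 970.1 ± 168, *Sms* at 728 ± 12.9, *Srm* at 608 ± 141 and *Asl* at 377 ± 11.03. Neighbours in this WT order had separate ranges except *Sms* and *Srm*. Of the rest, 3 members lay far lower in WT, with *Arg1* at 19.1 ± 1.95, *Ass1* at 13.6 ± 17.6 and *Arg2* at 1.255 ± 0.587 per kb, and *Nos2* was listed at 0. The WT ranges of *Arg1* and *Ass1* overlapped, as did those of *Ass1* and *Arg2*. In Lcn10-KO the order differed only where *Ass1* (20.0 ± 12.2 per kb) had a higher mean than *Arg1* (6.40 ± 3.64), with overlapping ranges. That difference depends on how reads of *Ass1* were split with a near-identical copy, described below. With the copy added, *Ass1* stood at 33.5 ± 11.2 per kb in WT and 25.8 ± 2.40 in Lcn10-KO, above *Arg1* in both. *Oaz1* ranked 273rd by mean value among the 12091 genes tested and *Arg1* 11444th.

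**Figure D2:**
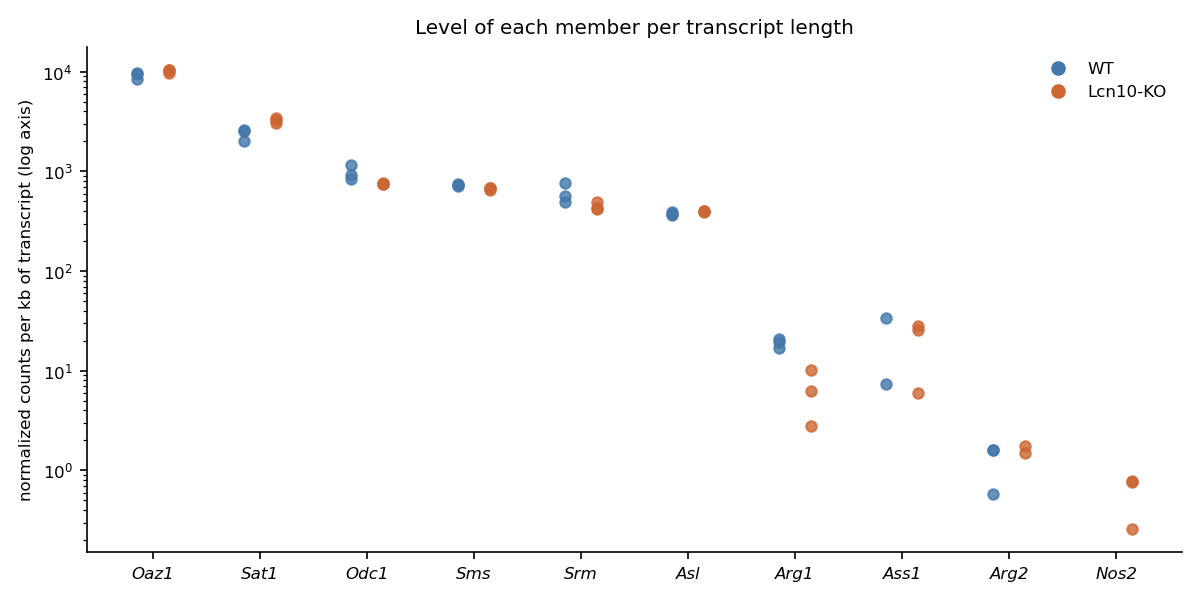
Normalized counts per kb of the longest coding transcript (vertical log axis) for each member, with 1 point per library in WT (blue) and Lcn10-KO (orange). *Oaz1* lies between 8450 and 10420 and *Arg1* between 2.82 and 20.8; values of 0 (*Nos2* in WT, *Ass1* in WT replicate 2 and *Arg2* in Lcn10-KO replicate 3) cannot be drawn on this axis.

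Among the enzymes that spend arginine, *Arg1* (chromosome 10, 24915221 to 24927484, minus strand, GRCm38) was at 30.7, 25.1 and 28.9 normalized counts in WT replicates 1 to 3. In Lcn10-KO replicates 1 to 3 it was at 14.9, 9.30 and 4.16. Every Lcn10-KO value lay below every WT value, and the Lcn10-KO libraries differed among themselves more than 3-fold. The mean was 28.2 ± 2.88 in WT and 9.45 ± 5.37 in Lcn10-KO (SD, n = 3 each). The log2 fold change was -1.62 ± 0.39 (SE) with a limma adjusted p of 0.0244, the 22nd largest change by size among all genes tested. These are small numbers of reads. Divided by the value of a single read, the WT libraries held about 27, 22 and 35 reads of the gene, the Lcn10-KO libraries 14, 11 and 4. In bulk RNA, fewer cells that express a gene and less RNA per cell cannot be told apart. *Arg1* was no longer past the threshold when WT replicate 3 (limma adjusted p = 0.0628), the second Lcn10-KO library (0.0799) or the third (0.0853) was left out. Nor did it pass in limma with the mean-variance trend and the robust option both switched off (0.12).

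*Arg2*, the mitochondrial arginase, was close to absent, at 2.28, 2.27 and 0.824 normalized counts in WT and 2.13, 2.54 and 0 in Lcn10-KO. That is at most 3 reads in any library, and the genotypes overlapped (exact two-sided permutation p = 0.8). Over 285 bases it overlaps *Vti1b*, a gene on the opposite strand at 1495 to 1649, whose reads there could be taken for *Arg2* if strand was not used in counting. *Nos2*, the inducible nitric oxide synthase, was listed at 0 in all 3 WT libraries and at 3.29, 3.19 and 1.07 in Lcn10-KO. The groups did not overlap, with an exact two-sided permutation p of 0.1, the smallest that 3 against 3 libraries allow. The Lcn10-KO values are about 3, 4 and 1 reads, while a count of 0 allows up to 3 reads, worth 2.47 to 3.42 normalized counts in the WT libraries. With no filter on low values *Nos2* passed limma (adjusted p = 0.0337), a call that rests on these few reads.

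The enzymes that rebuild arginine from citrulline differed in level. *Asl*, argininosuccinate lyase, was at 908, 936 and 883 normalized counts in WT and at 969, 971 and 954 in Lcn10-KO. The groups did not overlap, but the difference was small, with a log2 fold change of 0.086 (95% interval -0.023 to 0.20, limma adjusted p = 0.306). *Ass1*, argininosuccinate synthase, was at 12.4, 0 and 56.9 in WT and 47.9, 10.2 and 43.8 in Lcn10-KO. Its values varied more within each genotype than between them (log2 fold change 1.66 ± 1.75 (SE), adjusted p = 0.626). The gene lies on chromosome 2 (31470207 to 31520672, plus strand), 5.78 Mb from *Lcn10*.

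*Ass1* has a near-identical copy, the processed pseudogene *Gm5424* (chromosome 10, 62071123 to 62072362). Over 1240 aligned bases the copies differ at 6, and the longest identical run is 398 bases. The most different coding stretch of 90 bases is shown because it carries the few letters by which a read could be assigned to one or the other. Differing bases are in capitals, and the sequences are from the GENCODE transcripts of GRCm38.
Ass1: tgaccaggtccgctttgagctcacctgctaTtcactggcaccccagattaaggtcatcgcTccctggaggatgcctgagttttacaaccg
Gm5424: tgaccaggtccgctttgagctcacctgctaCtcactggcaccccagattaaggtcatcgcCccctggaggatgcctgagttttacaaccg
*Gm5424* was listed at 63.3, 37.7 and 0 in WT and at 0, 29.6 and 0 in Lcn10-KO, high where *Ass1* was low. The pseudogene took 83.6% of the summed value in WT replicate 1, 100% in WT replicate 2 and 74.5% in Lcn10-KO replicate 2. Added together, the pair came to 75.8, 37.7 and 56.9 in WT and 47.9, 39.8 and 43.8 in Lcn10-KO. These sums overlapped, with a mean of 56.8 ± 19.0 in WT and 43.8 ± 4.06 in Lcn10-KO (SD, n = 3 each). Fitted as a sum, the log2 fold change turned from 1.66 to -0.32 ± 0.24 (SE, limma adjusted p = 0.442). No direction can be read for *Ass1* itself.

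Polyamine synthesis starts with *Odc1* (chromosome 12, 17544794 to 17551505, plus strand), ornithine decarboxylase. *Odc1* was at 2554, 1835 and 2037 normalized counts in WT and at 1644, 1689 and 1654 in Lcn10-KO. All Lcn10-KO values were lower, and they lay within a coefficient of variation of 1.43%, against 17.3% in WT, where replicate 1 was the highest. The log2 fold change was -0.35 ± 0.11 (SE), and it did not pass (limma adjusted p = 0.109). Without WT replicate 1 it was smaller, at -0.22 ± 0.051, and passed (adjusted p = 0.00916). It also passed without WT replicate 2 (-0.46, adjusted p = 0.0102).

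*Srm*, spermidine synthase, had a like spread over the libraries, at 1024, 659 and 757 in WT and 659, 573 and 567 in Lcn10-KO. Its groups touched without overlapping, since WT replicate 2 (659.5) and Lcn10-KO replicate 1 (658.9) were nearly equal. The log2 fold change was -0.42 ± 0.17 (SE, limma adjusted p = 0.185). It was -0.24 ± 0.077 without WT replicate 1 (adjusted p = 0.060) and -0.56 without WT replicate 2, where it passed (adjusted p = 0.0393). *Sms*, spermine synthase, was steadier, at 2688, 2669 and 2760 in WT and 2525, 2393 and 2540 in Lcn10-KO. Its groups were apart by a small margin, with a log2 fold change of -0.12 ± 0.043 (SE, limma adjusted p = 0.0902).

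Spermidine and spermine synthases also need decarboxylated S-adenosylmethionine, which S-adenosylmethionine decarboxylase supplies. The mouse genome holds this enzyme as *Amd1* and a near-identical gene, *Amd2*, which differ at 10 of 3198 aligned bases, gaps apart, with an identical run of up to 930. Their 1 differing base in the coding stretch of 90 bases with the most differences is in capitals, to show how little tells the genes apart.
Amd2: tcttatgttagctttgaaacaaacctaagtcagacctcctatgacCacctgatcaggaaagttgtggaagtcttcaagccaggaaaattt
Amd1: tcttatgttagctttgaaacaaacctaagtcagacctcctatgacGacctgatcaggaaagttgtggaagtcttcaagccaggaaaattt
*Amd1* was listed at 738, 1692 and 0 in WT and 233, 175 and 224 in Lcn10-KO, and *Amd2* at 2518, 1127 and 2914 and at 2325, 2117 and 2139. Neither gene alone passed (limma adjusted p = 0.897 and 0.902). Their sums were 3256, 2820 and 2914 in WT and 2558, 2292 and 2363 in Lcn10-KO. Their sum fell in Lcn10-KO, with no overlap between genotypes and a log2 fold change of -0.32 ± 0.060 (SE, limma adjusted p = 0.00982 in a fit with the copies added up). This pair was singled out after its values were seen. Its sum was not refitted with a library left out or without the mean-variance trend, so how far the call holds was not tested.

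**Figure D3:**
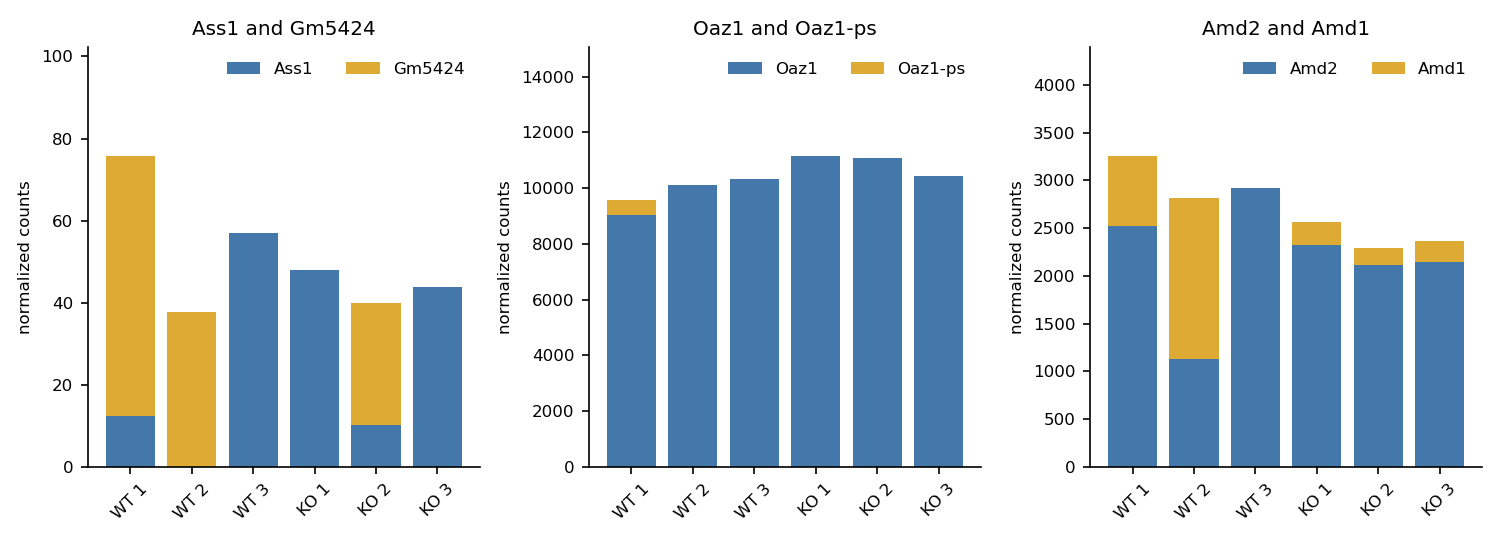
Normalized counts (vertical axis, from 0) of *Ass1*, *Oaz1* and *Amd2* (blue) stacked with those of the near-identical copies *Gm5424*, *Oaz1-ps* and *Amd1* (yellow) in WT and Lcn10-KO (KO) replicates 1 to 3. The split between copies changes from library to library, while the height of the stack varies less; the *Ass1* stack ranges from 37.7 to 75.8.

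*Sat1* (chromosome X, 155213132 to 155216449, minus strand), spermidine/spermine N1-acetyltransferase, was the member that rose. It was at 2359, 2958 and 3023 normalized counts in WT and at 3590, 4006 and 3807 in Lcn10-KO. All Lcn10-KO values lay above all WT values, and WT replicate 1 was the lowest of the 6. The log2 fold change was 0.46 ± 0.097 (SE) with a limma adjusted p of 0.0314. Without WT replicate 1 the difference was smaller and its error much smaller, at 0.34 ± 0.047 (adjusted p = 8.4e-05). The call was lost without Lcn10-KO replicate 1 (limma adjusted p = 0.051), 2 (0.106) or 3 (0.108). It was also lost in limma with the mean-variance trend and the robust option both switched off (0.117). In the fits that lost the call the log2 fold changes were 0.42 to 0.50.

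*Oaz1*, ornithine decarboxylase antizyme, binds ornithine decarboxylase and sends it to the proteasome. Its protein is made only when ribosomes shift frame at an early stop codon, a step that polyamines favour. That site is shown with its stop codon in capitals, from a coding GENCODE transcript of the gene, because a level of *Oaz1* RNA does not give the level of antizyme protein.
Oaz1: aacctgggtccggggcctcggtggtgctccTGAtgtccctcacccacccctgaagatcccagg
*Oaz1* was at 9050, 10109 and 10314 normalized counts in WT and at 11159, 11093 and 10420 in Lcn10-KO. The groups lay apart, by a narrow margin between WT replicate 3 and Lcn10-KO replicate 3. The log2 fold change was 0.15 ± 0.052 (SE, limma adjusted p = 0.0866), and 0.092 ± 0.041 without WT replicate 1 (adjusted p = 0.181). The processed pseudogene *Oaz1-ps*, which differs at 1 of 681 aligned bases apart from a gap, was listed at 506 in WT replicate 1 and at 0 in the other 5 libraries. With it added, WT replicate 1 came to 9556 and the log2 fold change to 0.12 ± 0.045 (adjusted p = 0.0959).

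Other members also have copies in the annotation, which could take or give reads. At 90% identity over at least 300 bases, *Odc1* matched 13 other genes, *Sms* 6, *Sat1* 2 and *Srm* 1. Of these only *Gm8234*, a copy of *Sms* at no more than 5.71, and *AW146154*, which resembles *Odc1* on the opposite strand and lay at 109 to 158, are listed in the table. *Arg1*, *Arg2*, *Nos2* and *Asl* had no such match.

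**Figure D4:**
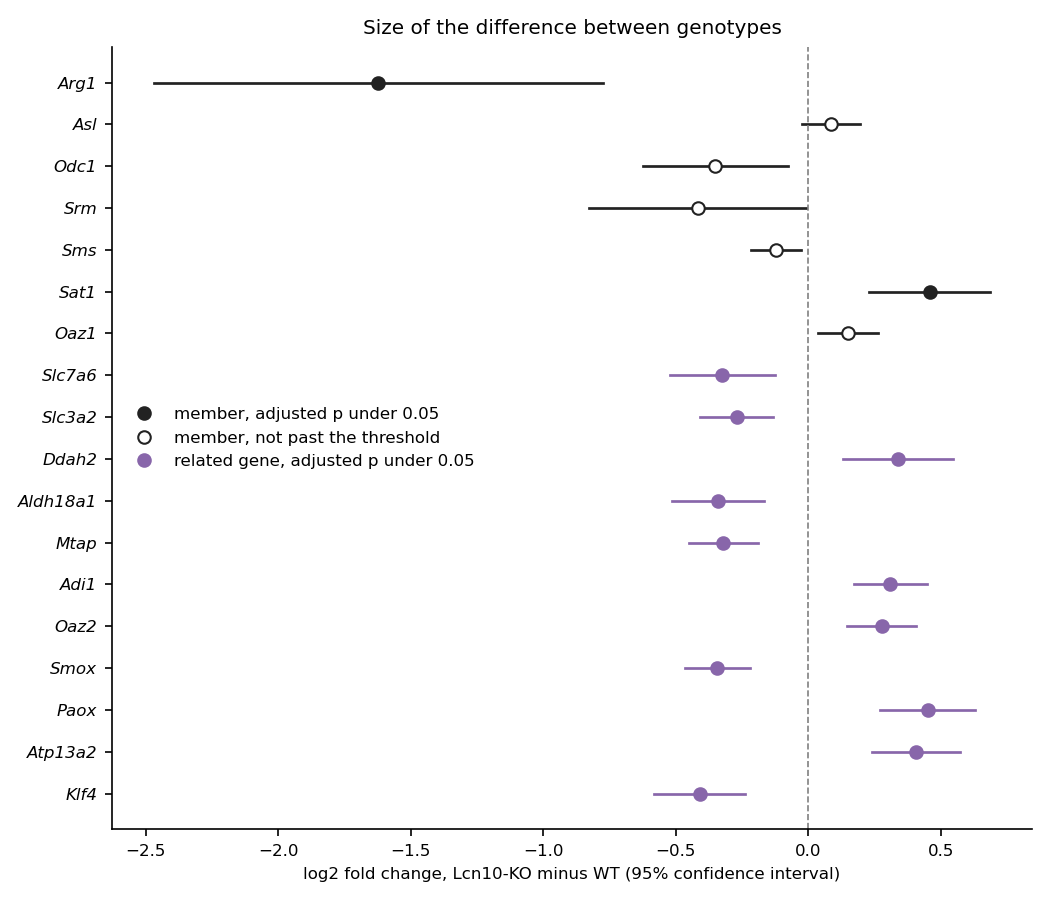
Log2 fold change, Lcn10-KO minus WT (horizontal axis), with its 95% confidence interval, for 7 tested members (black) and 11 of the 12 related genes past the threshold (purple); filled points passed and open points did not. *Arg1* at -1.62 has the widest interval shown and *Sat1* at 0.46 lies above 0; *Ass1*, with an interval from -2.98 to 6.30, is left out so that the others can be read.

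Several members varied together over the 6 libraries, whose genotypes and WT replicate 1 both contribute to the relation. As a description, Pearson's r of the log2 values over 6 libraries was 0.96 between *Odc1* and *Srm* and 0.91 between *Sat1* and *Oaz1*. It was -0.93 between *Odc1* and *Sat1*, -0.94 between *Srm* and *Sat1* and -0.91 between *Odc1* and *Oaz1*. In WT replicate 1 *Odc1* and *Srm* were highest of all 6 libraries and *Sat1* and *Oaz1* lowest, so this one library weighs on each of these values. *Ass1*, as listed without its copy *Gm5424*, had r between -0.31 and 0.28 with the others. Its reads were split with that copy, so these values describe the listed row and not the gene. The relation of the summed pair to the other members was not tested.

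Among 10559 tested genes with a mean of at least 50, those whose pattern over the 6 libraries was most like that of *Odc1* were *Impdh1*, *Npy*, *Psme3*, *Pold1* and *Top1*. Pearson's r with *Odc1* was 0.997, 0.997, 0.996, 0.996 and 0.995. *Impdh1* codes for an enzyme of guanine nucleotide synthesis, *Pold1* for a DNA polymerase subunit and *Top1* for a topoisomerase. For *Arg1* the most alike were *Rpa2*, a subunit of a single-stranded DNA binding complex, *Ehd1*, *Pcna*, the sliding clamp of DNA replication, *Tnfsf9* and *Bmi1*. Their r over the 6 libraries was 0.989, 0.984, 0.983, 0.982 and 0.981. These values are a description of shared variation among the same 6 libraries, and were picked as the highest of 10559 genes. A role is given above for only some of the named genes, and a shared function was not tested.

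Related genes that are no members were taken from 10 lists, also chosen with earlier results of these data known. Of their 87 genes 86 were found by name and 66 were tested. In Lcn10-KO 5 were higher and 7 lower, 18.2% of the 66 against 9.84% of all genes tested. Their median log2 fold change was 0.0067.

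The genes of polyamine breakdown and transport had 2 higher, 1 lower and 3 not past the threshold of 6 tested. Over all genes tested 9.84% were called, 4.7% as higher and 5.14% as lower, and the 6 are few. *Paox*, the peroxisomal oxidase that acts on acetylated polyamines made by the *Sat1* enzyme, was at 294, 328 and 320 in WT and 389, 464 and 438 in Lcn10-KO. It rose by a log2 fold change of 0.45 ± 0.083 (SE, limma adjusted p = 0.00819). *Smox*, which oxidizes spermine directly, went the other way, at 1053, 973 and 1087 in WT and 829, 791 and 830 in Lcn10-KO (-0.34 ± 0.057, limma adjusted p = 0.0049). The oxidases thus moved in opposite directions, and both had separate groups, as had 32.4% of all genes tested. *Atp13a2*, a lysosomal exporter of polyamines, rose from 4542 ± 481 to 6003 ± 334 (SD, n = 3 each; log2 fold change 0.41 ± 0.074, limma adjusted p = 0.0131). The *Smox* call held in each fit with 1 library fewer (limma adjusted p of up to 0.0417), whereas *Paox* and *Atp13a2* did not pass without Lcn10-KO replicate 2 or 3 (limma adjusted p of up to 0.0704).

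Of the antizyme genes, *Oaz2*, a second antizyme, rose from 712 ± 47.9 to 862 ± 8.79 (SD, n = 3 each; log2 fold change 0.28 ± 0.060, limma adjusted p = 0.0157). The antizyme inhibitor gene *Azin1* did not pass (-0.10 ± 0.048 (SE), limma adjusted p = 0.203). Its Lcn10-KO values all lay below WT, as in 16.9% of all genes tested. *Azin2*, kept in another list, overlapped between genotypes and did not pass (0.43 ± 0.21 (SE), limma adjusted p = 0.211). *Oaz3* was at or near 0. In the list for decarboxylated S-adenosylmethionine supply and methylthioadenosine salvage, 1 of 10 tested genes was higher and 1 lower. Over all genes tested 4.7% were called higher and 5.14% lower. *Mtap*, which salvages the methylthioadenosine left by polyamine synthesis, fell from 1250 ± 94.3 to 999 ± 33.6 (SD, n = 3 each; log2 fold change -0.32 ± 0.060, limma adjusted p = 0.00887). *Adi1*, a later enzyme of the same salvage route, rose from 634 ± 41.4 to 786 ± 31.9 (0.31 ± 0.063, adjusted p = 0.0125). *Mtap* and *Adi1* did not pass without Lcn10-KO replicate 2 or 3, nor *Oaz2* without any 1 of the Lcn10-KO replicates (limma adjusted p of up to 0.0795).

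Of 7 tested genes of arginine uptake and transport, 2 were called lower and 0 higher (5.14% and 4.7% of all genes tested). The genotypes did not overlap in 3 with Lcn10-KO below and in 1 with it above (16.9% and 15.5% of all genes tested). The 1 above was *Slc7a7*, at a log2 fold change of 0.20 ± 0.072 (SE, limma adjusted p = 0.0999). *Slc3a2*, the heavy chain shared by several amino acid exchangers, was at 6731, 5565 and 5759 in WT and 5019, 4978 and 4920 in Lcn10-KO. Its log2 fold change was -0.27 ± 0.063 (SE, limma adjusted p = 0.0253). One of its light chains, *Slc7a6*, fell by 0.32 ± 0.089 on the log2 scale (adjusted p = 0.0463), and by 0.21 without WT replicate 1. WT replicate 1 was the highest library for both genes, as for *Odc1*. Both calls were lost without Lcn10-KO replicate 1, 2 or 3, with limma adjusted p of up to 0.168, and that of *Slc7a6* also without WT replicate 3.

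Outside the polyamine branch, *Aldh18a1*, which makes the precursor of proline and ornithine from glutamate, fell from 1072 ± 136 to 842 ± 21.6 (SD, n = 3 each; log2 fold change -0.34 ± 0.079, limma adjusted p = 0.0238). It was the 1 call among 6 tested genes of ornithine, proline and glutamate exchange, beside 9.84% of all genes tested. It did not pass without any 1 of the Lcn10-KO replicates (limma adjusted p of up to 0.0984). *Ddah2*, of the family that breaks down methylated arginines, rose from 236 ± 28.4 to 298 ± 7.41 (0.34 ± 0.096, limma adjusted p = 0.0437). *Ddah2* was the 1 call among 5 tested genes of a list named for the urea cycle and other arginine users, again beside 9.84%. It did not pass without WT replicate 2 or any 1 of the Lcn10-KO replicates (limma adjusted p of up to 0.133). The other tested genes of that list were *Gatm*, *Gamt*, *Azin2* and *Ddah1*. Its urea cycle genes *Cps1*, *Otc* and *Nags* were not tested, and *Otc* and *Nags* were listed at 0 in all 6 libraries. None of the 4 hypusine genes passed limma. An unadjusted p under 0.05, reached by 3180 of all 12091 genes tested, was found for 1, *Eif5a* (-0.13 ± 0.056, adjusted p = 0.155). *Eif5a* was at -0.064 without WT replicate 1 (adjusted p = 0.369) and passed limma without WT replicate 2 (-0.19, adjusted p = 0.0337).

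*Arg1* and *Nos2* are usually assigned to lists of macrophage activation. Of 10 tested genes of alternative activation, *Klf4*, a transcription factor, was the 1 that passed (10%, near the 9.84% of all genes tested), lower in Lcn10-KO (344 ± 19.2 against 259 ± 10.4 (SD, n = 3 each); log2 fold change -0.41 ± 0.080, limma adjusted p = 0.0104). *Klf4* did not pass without Lcn10-KO replicate 2 or 3 (limma adjusted p of up to 0.0647). Singled out after its values were seen, *Mrc1*, the mannose receptor, was at 8644, 11634 and 11941 in WT and 14118, 17184 and 16858 in Lcn10-KO (limma adjusted p = 0.0838). Of 9 tested genes of classical activation 0 passed limma and 3 had an unadjusted p under 0.05, as had 3180 of all 12091 genes tested. The smallest p was that of *Irf5*, an interferon regulatory factor (-0.14 ± 0.045, adjusted p = 0.0674).

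**Figure D5:**
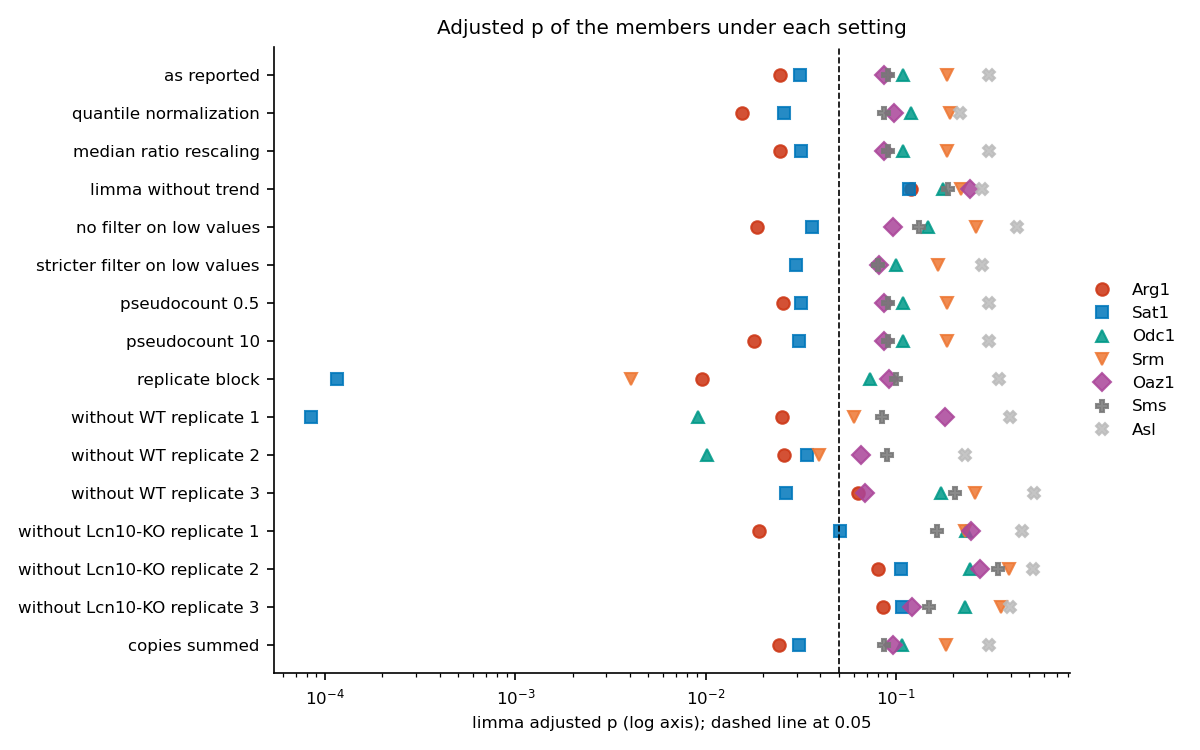
Limma adjusted p (horizontal log axis, dashed line at 0.05) of 7 members under the reported settings and each alternative. *Arg1* (circles) and *Sat1* (squares) lie left of the line as reported. They lie to its right without Lcn10-KO replicate 2 or 3 and in limma without trend, where the robust option was also off. *Odc1* (triangles) lies left of the line without WT replicate 1 or 2.

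Promoter sequences from RefSeq (GRCm38.p6, 250 bases before to 50 after a transcript start) matched 5 of the 10 members, *Ass1*, *Odc1*, *Sms*, *Sat1* and *Oaz1*, with 6 windows. They were searched on both strands for CACGTG (an E-box that Myc and MiT/TFE factors bind), TTCNNNGAA and the same with 4 free bases (forms bound by STAT factors) and TGACGTCA (a cyclic AMP response element). CACGTG was found in 2 of the 6 windows, 1 of *Sms* and that of *Ass1*, and in 7.15% of all 32851 windows. The other motifs were in none of the 6. In all windows TTCNNNGAA was found in 8.3%, the form with 4 free bases in 6.95% and TGACGTCA in 1.79%. The bases upstream of the annotated start are shown for *Sat1*, the member that rose, and for the *Sms* window with the E-box, in capitals.
Sat1, chrX:155216450-155216699, minus strand: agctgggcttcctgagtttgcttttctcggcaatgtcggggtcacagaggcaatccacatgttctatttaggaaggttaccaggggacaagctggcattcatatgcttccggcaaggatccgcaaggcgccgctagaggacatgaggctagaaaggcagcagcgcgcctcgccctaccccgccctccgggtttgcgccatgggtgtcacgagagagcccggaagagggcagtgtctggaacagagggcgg
Sms, chrX:157492288-157492537, minus strand: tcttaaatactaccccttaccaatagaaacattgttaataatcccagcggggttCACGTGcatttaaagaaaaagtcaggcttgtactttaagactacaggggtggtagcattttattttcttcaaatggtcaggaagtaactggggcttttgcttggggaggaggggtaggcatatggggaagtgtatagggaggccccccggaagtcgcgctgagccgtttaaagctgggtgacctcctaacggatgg
A match or its lack is a description of these letters only.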

How the data were processed

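RNA from 6 libraries was sequenced, 3 WT and 3 Lcn10-KO. STAR 2.6.1a, Salmon 0.11.2, bcl2fastq, DESeq2 and the build mm10 are named in the submitters' processing notes, without role or order. Annotation, filters and strand setting: not given in the sources used here. What the authors deposited is a signal, read counts after scaling, with totals of 20476700 to 20636300 per library. The value of 1 read was 0.8242 to 1.1408, and 90.7% to 92.6% of low values were whole multiples within 0.1 reads, too few to recover counts, so no count test was run.

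Columns were matched to samples by library name. Log2(value + 1) of 12091 genes was fitted with limma 3.58.1 in R 4.3.3 (genotype as the only term, mean-variance trend, robust). Fold changes are Lcn10-KO minus WT. The procedure was tested on simulated data. Named genes were all members and, per related list, up to 4 called genes or else the smallest p. One called related gene is counted but not reported here. The members and lists were chosen with earlier results of these data known. Copies were found with BLAST 2.17.0 and aligned with Biopython 1.88. Positions and lengths are from GENCODE for GRCm38, the assembly mm10 names. Intervals and read limits cover counting or fit error only. Python 3.11.15 and matplotlib 3.10.9 drew the figures. Alternatives were other normalizations, filters, pseudocounts, no trend, a replicate block, each library left out and, chosen after the data were seen, copies summed. The setting with no trend also switched the robust option off.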

Additional observations from a re-analysis of the deposited data

How the results depend on the processing

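Across all genes 1190 were called as reported and 25 in limma without the trend. That setting also switched the robust option off, so the share of each in the fall was not tested. With 1 library left out 175 to 1664 genes were called (566, 207 and 175 without Lcn10-KO replicate 1, 2 or 3). Members past the threshold numbered 2 as reported and 0 without the trend (4 at an unadjusted p under 0.05 in limma), where the related genes went from 12 to 0 (21 unadjusted). Over all 12091 genes tested 2756 had such an unadjusted p in limma without the trend. With the stricter filter, a value of at least 50, there was 1 member, since *Arg1* was not tested. With 1 library left out there were 0 to 4 members and 1 to 14 related genes, both lowest without Lcn10-KO replicate 2 or 3. Under other normalizations and pseudocounts the called members were the same, *Arg1* and *Sat1*. *Ass1* alone among the members reversed, at -0.32 with copies summed. The other 7 tested members kept their direction under every alternative in which they were fitted. The labels do not say whether equal replicate numbers pair the libraries. Same-numbered deviations correlated at 0.038, 0.073 and 0.014, and Lcn10-KO replicate 3 correlated better with WT replicate 1 (0.026). Correlations this small cannot settle the pairing. With the replicate block 1607 genes and 3 members were called, *Srm* added (adjusted p = 0.00406). Low depth limits *Arg1*, *Arg2* and *Nos2*, each at 35 reads or fewer per library.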
